A study of Mus musculus with 4 samples.

Results

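The Sonic hedgehog pathway was described here by 9 genes chosen by name, Shh, Hhip, Ptch1, Gas1, Smo, Sufu, Gli1, Gli2 and Gli3, out of 21938 protein-coding genes and 55413 genes of all kinds in the annotation. Chromatin accessibility was profiled by ATAC-seq, which reads where a transposase can cut the DNA, in hippocampi dissected at postnatal day 0. The cKO libraries (cKO1 and cKO2) carried Kdm2bEmx1-delta-CxxC. There Cre, driven by Emx1, a gene of the dorsal telencephalon, deletes the part of Kdm2b that codes for the CxxC zinc finger. With this domain the KDM2B protein binds unmethylated CpG. The Ctrl libraries (Ctrl1 and Ctrl2) were Kdm2bfl/+ or Kdm2bfl/fl, and the labels do not say which library had which genotype. The peak names begin with 1Kf-+ in Ctrl1, 4Kf-f in Ctrl2, 5cko in cKO1 and 7cko in cKO2, and no source used here says what these prefixes mean. A difference in genotype between Ctrl1 and Ctrl2 therefore cannot be told apart from other differences between these libraries. Emx1-Cre does not act in cells that come from outside the dorsal telencephalon, such as vessels and microglia, so the cKO tissue still held cells with intact Kdm2b. The titles name hippocampus, whereas the source field names neural progenitor cells. No label gave sex, litter or batch. Nothing said that replicates came from separate animals, so any p-value measures only the spread between these libraries.

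In this pathway the secreted ligand SHH binds PTCH1 at the primary cilium, which frees the membrane protein SMO to signal. SMO in turn relieves GLI transcription factors of SUFU, and GLI proteins then raise target genes, among them Gli1, Ptch1 and Hhip themselves. In the hippocampus the pathway is known for sustaining dentate gyrus progenitors, and Gli3, whose product acts mostly as a repressor in the dorsal telencephalon, is needed for the hippocampus to form.

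The authors deposited 1 peak list per library, with 46389 peaks in Ctrl1, 7037 in Ctrl2, 21404 in cKO1 and 44535 in cKO2. Ctrl2 stood apart. In that list 60.6% of the peaks lay mostly in repeat-masked sequence, against 5.37% to 14.7% in the other lists, and only 8.27% of protein-coding genes had a promoter peak in it. None of 6 marker genes of dorsal telencephalon and hippocampus (Emx1, Emx2, Lhx2, Zbtb20, Prox1 and Neurod6) had a promoter peak there. In Ctrl1 and cKO2 all 6 had one, and 3 had one in cKO1. No promoter peak was listed in any library for the markers of microglia (3 genes), blood vessels (2 genes), ventral telencephalon (Nkx2-1) or other tissues (4 genes). Of 3 interneuron markers, 2 had one in Ctrl1 and 1 in cKO2. Of 3 oligodendrocyte lineage markers, 1 had one in each of these libraries. Differences between the groups in promoter percentile and in peak share are therefore given with and without Ctrl2.

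Promoter peaks, those with a summit within 2 kb of a transcription start site (TSS), were listed for 7 of the 9 genes in Ctrl1 and for 1 in Ctrl2. They were listed for 5 in cKO1 and 8 in cKO2. Sufu was the only one of the 9 with a promoter peak in all 4 lists and Shh the only one with none. Ptch1, Gas1, Gli2 and Gli3 had one in 3 lists, Hhip and Smo in 2, and Gli1 in cKO2 alone. The corresponding shares were 77.8%, 11.1%, 55.6% and 88.9% of the 9 genes, beside 58.0%, 8.27%, 40.3% and 55.9% of all protein-coding genes. The mean was 6.5 ± 2.12 genes (SD, n = 2) in cKO and 4 ± 4.24 (SD, n = 2) in Ctrl, a difference within the spread of the replicates. Against Ctrl1 alone the difference was −0.5 genes.

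To place each promoter within its own library, the strongest promoter peak of a gene was ranked by −log10 p among all protein-coding genes. The promoter percentile is the percent of genes with a weaker one, and it is 0 for a gene without a peak. Of the 8 genes that had a promoter peak in 1 or more libraries, Gas1 and Gli2 ranked higher in both cKO libraries than in both Ctrl libraries, and none ranked lower. Across all 13196 genes with a promoter peak, 20.5% ranked higher in this way and 2.8% lower, so 2 of 8 is near the background. Without Ctrl2 the same 2 genes ranked higher in both cKO libraries than in Ctrl1 and none ranked lower, beside 23.8% higher and 36.6% lower of 13176 genes. The order of 4 libraries can give an exact two-sided permutation p no lower than 0.333, and no adjusted p over the 13196 genes was below 1. Over the 9 genes the mean percentile was 47.1, 10.8, 38.5 and 55.0 in Ctrl1, Ctrl2, cKO1 and cKO2, beside 41.2, 7.93, 32.1 and 40.2 over all protein-coding genes. The groups overlapped, with 46.7 ± 11.6 in cKO and 29.0 ± 25.7 in Ctrl (SD, n = 2 each). The mean of cKO minus that of Ctrl1 alone was −0.380. The median over the 9 genes was 54.4, 0, 60.9 and 58.4, beside 49.9, 0, 0 and 50.0 over all protein-coding genes. Genes without a peak count as 0 in these values. Among genes with a promoter peak the order turned in Ctrl1, cKO1 and cKO2. There the median of the pathway genes was 57.1, 65.8 and 59.8, beside 71.0, 79.9 and 72.1 over all such genes. In Ctrl2, where Sufu alone had a peak, it was 97.2 beside 95.6.

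**Figure D1:**
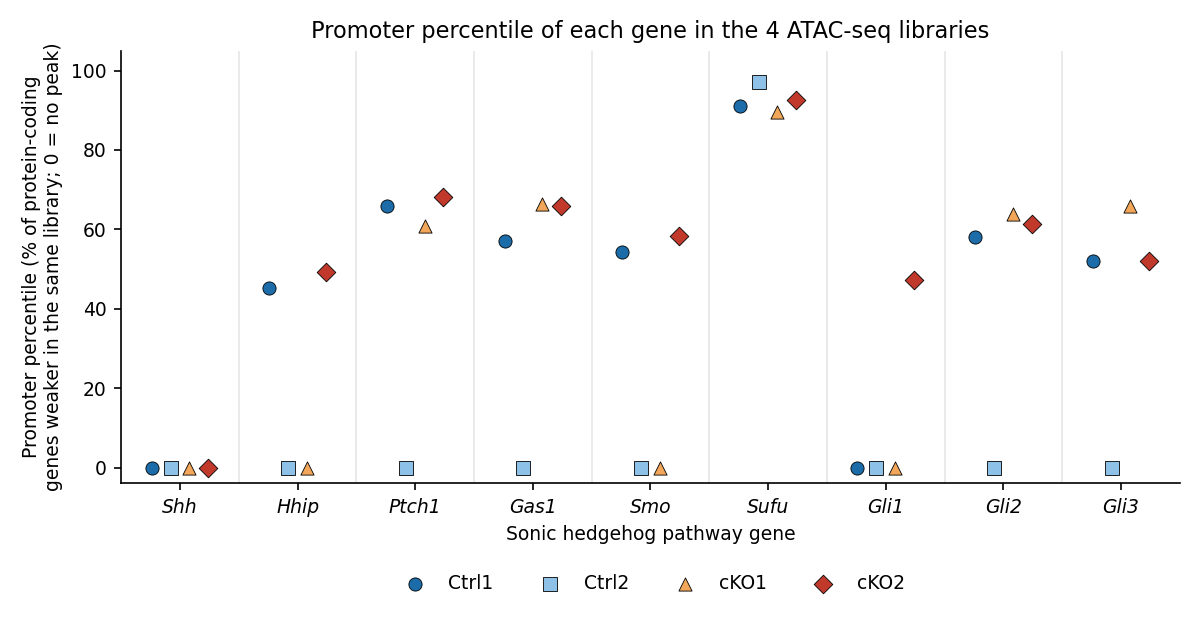
Promoter percentile (percent of protein-coding genes with a weaker strongest promoter peak in the same library, y axis) of the 9 pathway genes (x axis) in each of the 4 libraries, 1 point per library, with 0 for no promoter peak. Sufu lies between 89.6 and 97.2 in all 4 libraries, Shh lies at 0 in all 4, and in Ctrl2 every gene other than Sufu lies at 0.

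Shh (ENSMUSG00000002633.4, chr5:28456815-28467256, minus strand in mm10), the ligand, had no promoter peak in any library. Depth limits this statement. At a background equal to the genome mean a peak needed at least 7 fragments in Ctrl1, 12 in Ctrl2, 9 in cKO1 and 8 in cKO2, or 3.46 to 4.43 times the mean depth of the genome. Less accessible DNA was not detectable, and in bulk tissue fewer cells with an open promoter and a less open promoter in each cell cannot be told apart. Within the gene and 50 kb on either side there were 3 peaks in Ctrl1, 2 in cKO2 and none in the other 2 lists. The strongest of these regions lay downstream of the gene (chr5:28451087-28451444) and rested on 13 fragments in Ctrl1 and 18 in cKO2. No open region of the Shh window was thus shared by both libraries of either group.

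Hhip (ENSMUSG00000064325.4, chr8:79965851-80058006, minus strand), which codes for a membrane-anchored decoy that binds the ligand, had a promoter peak in Ctrl1 and cKO2 only. Its summit lay at −31 bp from the TSS in Ctrl1 with 12 fragments (95% exact Poisson interval 6.20 to 20.96). In cKO2 it lay at −44 bp with 13 fragments (6.92 to 22.2). These intervals and those below cover counting error only. These are shallow peaks, 7.40 and 7.20 times the mean depth of the genome. The promoter percentile was 45.2, 0, 0 and 49.2 in Ctrl1, Ctrl2, cKO1 and cKO2, and the groups overlapped (24.6 ± 34.8 in cKO, 22.6 ± 32.0 in Ctrl, SD, n = 2 each, exact permutation p = 1). Without Ctrl2 the sign of the difference turned, to −20.7 percentile points. The Hhip region away from promoters with the best mean rank (chr8:79943865-79944369, downstream of the gene) was listed in 3 libraries, with 17 fragments in Ctrl1, 13 in cKO1 and 25 in cKO2.

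Ptch1 (ENSMUSG00000021466.12, chr13:63508328-63573598, minus strand), the receptor of the ligand and a target of the pathway, had 2 separate promoter peaks. The upstream peak (chr13:63566045-63566621) had its summit at −646 bp in Ctrl1 with 52 fragments (38.8 to 68.2) and at −610 bp in cKO2 with 49 fragments (36.3 to 64.8). It was not listed in the other 2 libraries, and it is also within 2 kb of a TSS of the neighbouring gene A930032L01Rik. The downstream peak (chr13:63563150-63563601), near the TSS of another transcript of the gene, had its summit between 1204 and 1288 bp after that TSS, with 24 fragments in Ctrl1, 17 in cKO1 and 23 in cKO2. In cKO1 only this weaker peak was listed. The percentile was 66.0, 0, 60.9 and 68.1 in the same order of libraries, and the groups overlapped (64.5 ± 5.10 in cKO, 33.0 ± 46.6 in Ctrl, SD, n = 2 each, exact permutation p = 0.667). Without Ctrl2 the difference was −1.45 percentile points. The cKO1 value rested on the downstream peak alone. The difference between the groups fell from 31.5 points to 1.10 with promoters of 1 kb and to 1.08 at a −log10 q of at least 5. In both settings cKO1 had no Ptch1 promoter peak. Ranked by fold enrichment the percentile was 50.4, 0, 59.8 and 54.4, so both cKO libraries lay above both Ctrl libraries. Any peak in cKO1 gives at least 59.7, above Ctrl1, and Ctrl2 listed no Ptch1 promoter peak. Just outside the promoter limit, at −2148 bp, lay a region listed in all 4 libraries (chr13:63567713-63568241). It falls in the promoter of A930032L01Rik and held 84 fragments in Ctrl1, 15 in Ctrl2, 38 in cKO1 and 77 in cKO2. No other region of the Ptch1 window was listed in all 4 libraries.

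The letters GACCACCCA, the GLI-binding motif, were searched on both strands. They occurred in 4 of the 72 regions in the windows of the 9 genes (5.56%) and in 255 of all 58652 regions (0.435%), whose median widths were alike (483 and 478 bp). The 4 regions are not independent, because 3 lie in the Ptch1 window. The matches are shown on the strand that reads GACCACCCA, with the motif in capitals. They were chosen because they are the places where listed regions near pathway genes hold the letters that GLI factors bind.
Ptch1 upstream promoter peak, chr13:63566419-63566459, plus strand: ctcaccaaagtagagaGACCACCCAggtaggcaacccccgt
Ptch1, −7734 bp, chr13:63573449-63573489, minus strand: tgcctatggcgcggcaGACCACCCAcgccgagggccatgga
Ptch1, −19815 bp, chr13:63585530-63585570, minus strand: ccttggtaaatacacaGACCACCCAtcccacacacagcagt
Smo, −16617 bp, chr6:29719057-29719097, minus strand: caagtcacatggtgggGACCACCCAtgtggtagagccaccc
The first, at −704 bp from the Ptch1 TSS, lay within the peaks of Ctrl1 and cKO2. The second lay within those of Ctrl1 and cKO1, the third within that of cKO2 alone, and the match upstream of Smo within those of all libraries except Ctrl2. Although upstream of the nearest TSS used, the second match lies within the span of the Ptch1 gene, near its 5′ end at chr13:63573598. It is outside every Ptch1 exon of the annotation used. Its region is also within 2 kb of a TSS of Gm30655. None of the 4 was covered by both libraries of a group and no library of the other. In the 4001 bp around the most upstream TSS the motif occurred for Ptch1 alone among the 9 genes, and for 3.40% of all protein-coding genes. These are matches of letters, not measured binding.

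Gas1 (ENSMUSG00000052957.8, chr13:60174405-60177365, minus strand), a co-receptor that helps the ligand bind PTCH1, had a promoter peak (chr13:60177134-60178001) in every library except Ctrl2. The summit held 28 fragments (18.6 to 40.5) in Ctrl1, 18 (10.7 to 28.4) in cKO1 and 33 (22.7 to 46.3) in cKO2. The percentile of Gas1 was 57.1, 0, 66.5 and 65.8 in Ctrl1, Ctrl2, cKO1 and cKO2, higher in 2 of 2 cKO libraries than in either Ctrl library. Its mean was 66.1 ± 0.442 in cKO against 28.5 ± 40.4 in Ctrl (SD, n = 2 each, exact permutation p = 0.333, the lowest possible, adjusted p = 1). Without Ctrl2 the cKO mean stayed higher, by 9.04 percentile points. With lists trimmed to equal size no library had a Gas1 promoter peak. Depth at the summit did not follow the same order, at 17.3 times the genome mean in Ctrl1, 8.68 in cKO1 and 18.3 in cKO2. The median peak of the whole list stood at 11.1, 8.68 and 11.1 times in these libraries. The Gas1 peak is also within 2 kb of a TSS of the gene Gm48488. A percentile depends on how many genes have a peak at all. The lowest percentile open to a gene with a peak was 42.0 in Ctrl1, 91.7 in Ctrl2, 59.7 in cKO1 and 44.1 in cKO2. Any Gas1 peak in cKO1 thus ranked above the 57.1 of Ctrl1, and Ctrl2 listed none. Only the order of cKO2 and Ctrl1 was free to vary. The Gas1 window held no gene-body peak away from the promoter. Its region away from promoters (chr13:60160138-60160682) was 100% repeat-masked and listed in Ctrl2 and cKO1.

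**Figure D2:**
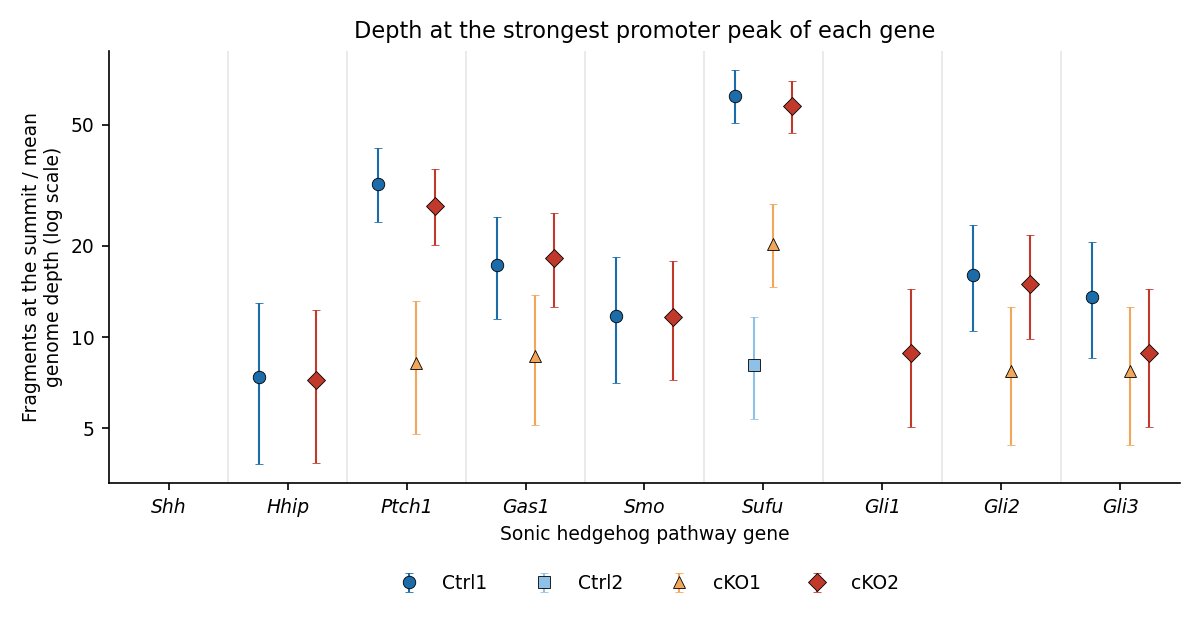
Fragments at the summit of the strongest promoter peak divided by the mean genome depth of the library (y axis, log scale) for each gene (x axis) with 95% exact Poisson intervals, 1 point per library with a promoter peak. Sufu reaches 62.3 in Ctrl1 and 57.6 in cKO2, and the points of cKO1, from 7.71 to 20.2, lie below those of Ctrl1 for each of the 5 genes with a peak in both. For Ptch1 and Sufu the points of cKO1 and Ctrl1 are different peaks. The median peak of the whole list lay at 8.68 in cKO1 and 11.1 in Ctrl1.

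Smo (ENSMUSG00000001761.7, chr6:29735503-29761365, plus strand), the membrane protein that carries the signal into the cell, had a promoter peak in Ctrl1 and cKO2, with 19 fragments (11.4 to 29.7) at −116 bp and 21 fragments (13.0 to 32.1) at −121 bp. The depths were close, at 11.7 and 11.6 times the genome mean. The percentile was 54.4, 0, 0 and 58.4 in the order given above, and the groups overlapped (29.2 ± 41.3 in cKO, 27.2 ± 38.4 in Ctrl, SD, n = 2 each, exact permutation p = 1). Against Ctrl1 alone the cKO mean differed by −25.2 percentile points. The deepest region of any of the 9 windows lay in an intron of Smo (chr6:29747703-29749087) and was listed in all 4 libraries. It held 117 fragments in Ctrl1, 328 in Ctrl2, 257 in cKO1 and 157 in cKO2. It ranked number 533, 35, 48 and 115 in the 4 lists. This region is 99.7% repeat-masked. It was deepest in the 2 lists with the largest share of repeat-masked peaks, Ctrl2 (60.6%) and cKO1 (14.7%). The part of repeats in its depth was not tested.

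Sufu (ENSMUSG00000025231.17, chr19:46396896-46488804, plus strand), whose product holds GLI proteins inactive, had the strongest promoter of the 9 genes in every library. Its peak at the start site (chr19:46396715-46397130) held 101 fragments (82.3 to 122.7) in Ctrl1, 28 (18.6 to 40.5) in Ctrl2, 35 (24.4 to 48.7) in cKO1 and 76 (59.9 to 95.1) in cKO2. A further peak at −1678 to −1635 bp lay inside the neighbouring gene Actr1a, within 2 kb of a TSS of both genes (chr19:46395126-46395808). It held 80, 42 and 104 fragments in Ctrl1, cKO1 and cKO2 and was not listed in Ctrl2. The peak at the start site was the stronger in Ctrl1 and the only one in Ctrl2, and the upstream peak was the stronger in both cKO libraries. The start-site summit took 55.8% of the fragments at the 2 summits in Ctrl1 (95% Wilson interval 48.5 to 62.8%), 45.5% in cKO1 (34.8 to 56.5%) and 42.2% in cKO2 (35.2 to 49.5%). These intervals overlap, and the share was chosen for description after the values had been seen. The percentile, 91.0 and 97.2 in Ctrl and 89.6 and 92.6 in cKO, overlapped between the groups (91.1 ± 2.13 in cKO, 94.1 ± 4.36 in Ctrl, SD, n = 2 each, exact permutation p = 0.667). Against Ctrl1 alone the difference was 0.0501. With promoters of 1 kb, which leave out the upstream peak, the percentile was 91.1 and 97.3 in Ctrl and 84.5 and 83.0 in cKO, lower in both cKO libraries, as for 2.85% of all genes with a promoter peak of that width. An intronic region 25728 bp after the nearest TSS of Sufu (chr19:46422369-46423126) was the best ranked of its regions away from promoters. It held 29, 23 and 47 fragments in Ctrl1, cKO1 and cKO2.

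Gli1 (ENSMUSG00000025407.7, chr10:127329882-127341974, minus strand), an activator whose transcription is itself a readout of the pathway, had a promoter peak in cKO2 alone, with 16 fragments (9.15 to 26.0) at −465 bp and a percentile of 47.3. A value from 1 library of 4 is within the spread of the replicates (23.7 ± 33.5 in cKO, 0 ± 0 in Ctrl, SD, n = 2 each, exact permutation p = 1). The difference was 23.7 percentile points with and without Ctrl2. At a −log10 q of at least 5 no library had a Gli1 promoter peak, and the difference was 0. More fragments lay inside the gene, where an intronic region at 2743 bp (chr10:127338812-127339473) held 28 fragments in Ctrl1, 16 in cKO1 and 36 in cKO2. When all GENCODE transcripts were used in place of the basic set, a choice made after the data were seen, a start site near this region put the percentile of Gli1 at 59.1, 0, 62.7 and 67.5. A Gli1 promoter peak was thus listed in 1 library with the basic set and in 3 with all transcripts.

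Gli2 (ENSMUSG00000048402.14, chr1:118834132-119053619, minus strand), the main activator of the family, had a promoter peak (chr1:119053440-119054257) in every library except Ctrl2. The summit held 26 fragments (17.0 to 38.1) in Ctrl1, 16 (9.15 to 26.0) in cKO1 and 27 (17.8 to 39.3) in cKO2. Its percentile was 58.2, 0, 63.8 and 61.2, so that each cKO library again lay above each Ctrl library. Its mean was 62.5 ± 1.78 in cKO against 29.1 ± 41.1 in Ctrl (SD, n = 2 each, exact permutation p = 0.333, adjusted p = 1). Without Ctrl2 the difference was 4.33 percentile points. Any peak in cKO1 gives a percentile of at least 59.7, above the 58.2 of Ctrl1, and Ctrl2 listed no Gli2 promoter peak. Only the order of cKO2 and Ctrl1 was therefore free to vary. As for Gas1, the depth at the summit did not share this order, at 16.0 times the genome mean in Ctrl1, 7.71 in cKO1 and 14.9 in cKO2. The call was lost with all GENCODE transcripts, where Ctrl1 (63.4) stood above cKO1 (62.5). It was also lost at a −log10 q of at least 5, where cKO1 had no peak and the difference was 1.54 points, and with lists trimmed to equal size, where no library had a Gli2 promoter peak. Of the 13 regions in the Gli2 window, 8 were held by a single list. The best ranked away from promoters was an intronic region 19638 bp into the gene (chr1:119033668-119034474), with 26 fragments in Ctrl1 and 30 in cKO2.

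Gli3 (ENSMUSG00000021318.15, chr13:15463235-15730026, plus strand), the GLI factor that acts mostly as a repressor, had a broad promoter peak (chr13:15463004-15464560) in the same 3 libraries, also within 2 kb of a TSS of Gm6556. The summit held 22 fragments (13.8 to 33.3) in Ctrl1, 16 (9.15 to 26.0) in cKO1 and 16 (9.15 to 26.0) in cKO2. The percentile was 52.1, 0, 65.8 and 51.9, so cKO2 lay just under Ctrl1 and the groups overlapped (58.9 ± 9.81 in cKO, 26.0 ± 36.8 in Ctrl, SD, n = 2 each, exact permutation p = 0.667). The overlap ended with promoters of 1 kb (53.52, 0, 66.9 and 53.56) and when ranked by fold enrichment (48.5, 0, 64.5 and 52.6). In these settings both cKO libraries lay above Ctrl1. Leaving out Ctrl1 or cKO2 also ended it. Within each replicate number the cKO library lay above the Ctrl library. Both of these orders were fixed once a peak was listed. Any peak in cKO1 gives at least 59.7, above the 52.1 of Ctrl1, and Ctrl2 listed none. The margin of the cKO mean over Ctrl1 alone was 6.77 percentile points, and it came from cKO1. The depth at the summit was lower in both cKO libraries, at 7.71 and 8.86 times the genome mean in cKO1 and cKO2 against 13.6 in Ctrl1. The Poisson intervals of these summits overlap. The median peak of the whole list stood at 8.68, 11.1 and 11.1 times in cKO1, cKO2 and Ctrl1. The deepest region of the Gli3 window lay downstream of the gene, 295463 bp from the nearest TSS (chr13:15758976-15759946), and was listed in all 4 libraries. It held 95 fragments in Ctrl1, 18 in Ctrl2, 38 in cKO1 and 100 in cKO2. It was deeper than the Gli3 promoter in each of the 3 libraries that listed the promoter. A group of intronic regions lay from 74046 to 106998 bp after the nearest TSS of the gene. The one at 81640 bp (chr13:15545207-15545740) held 30, 21 and 34 fragments in Ctrl1, cKO1 and cKO2.

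KDM2B binds unmethylated CpG, so the CpG content of these promoters was read from the genome. In the 1001 bp centred on the most upstream TSS were 117 CpG for Ptch1, 110 for Gli3, 99 for Gas1, 80 for Smo, 65 for Gli2, 60 for Sufu, 58 for Hhip, 49 for Gli1 and 35 for Shh, beside a median of 43 over 21938 protein-coding genes. Shh, the gene with no promoter peak, had the fewest, but Gli3 and Gas1 with 110 and 99 ranked below Sufu with 60 in each library where they had a peak. Over all protein-coding genes the median was 11 CpG for those with no promoter peak in any library. It was 41, 55, 66 and 72 for those with one in 1, 2, 3 and 4 libraries. The 250 bases before the RefSeq start (GRCm38.p6, 7 of the 9 genes matched) are shown for the 5 genes whose promoter peak was listed in 3 or 4 libraries. They run 5′ to 3′ on the gene's strand with each CpG in capitals, because CpG is what the deleted domain binds and because the peaks cover these bases to different extents.
Ptch1, chr13:63565736-63565985, minus strand: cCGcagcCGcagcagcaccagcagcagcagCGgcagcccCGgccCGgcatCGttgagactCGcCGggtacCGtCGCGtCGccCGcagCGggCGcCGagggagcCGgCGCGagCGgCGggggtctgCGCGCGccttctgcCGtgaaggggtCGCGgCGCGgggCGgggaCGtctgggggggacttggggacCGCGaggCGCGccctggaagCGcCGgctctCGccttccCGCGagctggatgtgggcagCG
Gas1, chr13:60177536-60177785, minus strand: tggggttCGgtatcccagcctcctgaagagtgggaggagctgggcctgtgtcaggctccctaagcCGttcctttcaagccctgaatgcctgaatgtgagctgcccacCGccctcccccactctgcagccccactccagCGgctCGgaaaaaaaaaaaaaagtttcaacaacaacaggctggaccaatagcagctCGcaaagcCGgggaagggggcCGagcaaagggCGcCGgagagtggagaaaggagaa
Sufu, chr19:46396646-46396895, plus strand: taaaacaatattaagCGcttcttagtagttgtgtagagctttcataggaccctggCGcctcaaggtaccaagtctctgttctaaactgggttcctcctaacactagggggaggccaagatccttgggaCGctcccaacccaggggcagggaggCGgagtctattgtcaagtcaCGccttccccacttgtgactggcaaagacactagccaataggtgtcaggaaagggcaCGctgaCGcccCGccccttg
Gli2, chr1:119053620-119053869, minus strand: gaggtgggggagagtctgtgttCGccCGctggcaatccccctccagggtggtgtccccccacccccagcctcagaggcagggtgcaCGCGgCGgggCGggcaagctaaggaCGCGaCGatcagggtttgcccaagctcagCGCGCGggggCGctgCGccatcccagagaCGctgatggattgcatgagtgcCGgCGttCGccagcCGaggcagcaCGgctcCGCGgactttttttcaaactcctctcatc
Gli3, chr13:15463473-15463722, plus strand: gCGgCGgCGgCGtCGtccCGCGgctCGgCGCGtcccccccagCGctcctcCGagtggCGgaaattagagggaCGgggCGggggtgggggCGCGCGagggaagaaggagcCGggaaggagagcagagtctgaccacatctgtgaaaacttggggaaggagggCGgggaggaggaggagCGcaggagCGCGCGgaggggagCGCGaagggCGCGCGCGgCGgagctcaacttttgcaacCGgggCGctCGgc
These stretches hold 41 CpG for Ptch1, 34 for Gli3, 22 for Gli2, 10 for Gas1 and 8 for Sufu. The CpG-rich stretch of Ptch1 lay in no peak of any library, between the upstream and the downstream peak described above. The stretches of Gli2 and Gli3 lay wholly within peaks (250 of 250 bases) in Ctrl1 and both cKO libraries. That of Gas1 did so in Ctrl1 and cKO1, with 211 bases covered in cKO2. Of the Sufu stretch, 181, 132, 166 and 166 bases were covered in Ctrl1, Ctrl2, cKO1 and cKO2. The GLI motif was in none of the 7 promoters of 300 bp and in 0.253% of 32851 RefSeq promoters of that length.

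Beyond promoters, the gene bodies with 50 kb on either side (1.69 Mb, 0.0619% of the genome) held 59 peaks in Ctrl1, 6 in Ctrl2, 26 in cKO1 and 58 in cKO2. As a share of each list this was 0.127% (95% Wilson interval 0.0986 to 0.164%), 0.0853% (0.0391 to 0.186%), 0.121% (0.0829 to 0.178%) and 0.130% (0.101 to 0.168%). Each share was above the share of the genome, although the interval of Ctrl2 includes it. Such a share was not computed for windows of other genes, so this comparison does not set the pathway apart from genes in general. All 4 intervals overlapped (0.126 ± 0.00620% in cKO, 0.106 ± 0.0296% in Ctrl, SD, n = 2 each). Without Ctrl2 the difference was −0.00133 percentage points. With all libraries kept it was 0.0196, and −0.00335 without repeat-masked peaks. Merged over the lists, these peaks formed 72 regions, of which 12 lay in a promoter of the 9 genes, 13 in a promoter of another gene, 28 in a gene body and 19 in the flanks. None of the 72 was shared by both cKO lists while absent from Ctrl, and none was shared by both Ctrl lists while absent from cKO. Of all 58652 regions, 0.692% and 0.305% had these patterns. The most frequent patterns were Ctrl1 with cKO2 (23 regions), these 2 with cKO1 (19 regions), and Ctrl1 or cKO2 alone (11 regions each). These were 31.9%, 26.4%, 15.3% and 15.3% of the 72, beside 27.1%, 25.9%, 18.8% and 14.1% of all 58652 regions. The 2 longest lists, 1 from each group, thus shared the most regions.

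**Figure D3:**
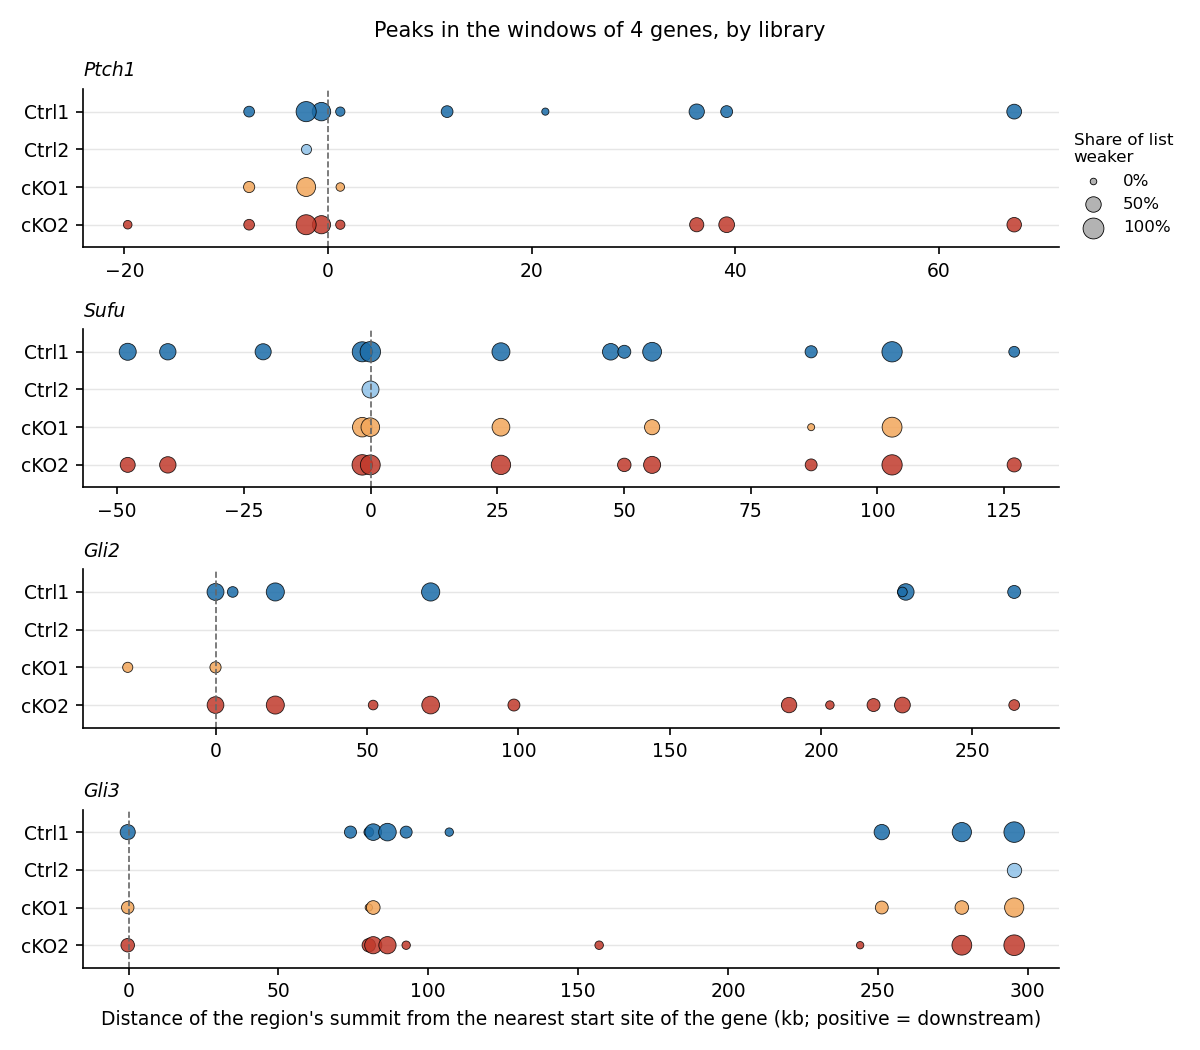
Regions with a peak in the windows of Ptch1, Sufu, Gli2 and Gli3 (panels) by distance of the summit from the nearest TSS of the gene in kb (x axis, positive downstream, the dashed line marks the TSS) in each library (rows), where point area grows with the percent of the library's list that is weaker. Ctrl1 and cKO2 share most regions of Ptch1, Sufu and Gli3 but 5 of 13 for Gli2, Ctrl2 holds 1 region each for Ptch1, Sufu and Gli3 and none for Gli2, and the far right region of Gli3 is present in all 4 rows.

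The density of peaks differed among the 9 genes. In Ctrl1 it was highest in the Sufu window, at 6.25 peaks per 100 kb, followed by Ptch1 (5.45), Gli1 (5.35) and Smo (4.77), and lowest for Gas1 (0.971), beside a median of 2.47 over all protein-coding genes. In cKO2 it was highest for Smo (5.56), then Gli1 (5.35), Sufu (5.21) and Ptch1 (4.84), and lowest for Shh (1.81), beside a median of 2.31. In cKO1 the same 4 genes lay at 1.82 to 3.13 peaks per 100 kb, and Gas1 (1.94) and Gli3 (1.64) were also above the median of 0.984. Hhip (0.520), Gli2 (0.626) and Shh (0) lay below it. The densities of Gli1, Smo, Sufu and Ptch1 included peaks at promoters of other genes, such as Mars and Mbd6 near Gli1, Ahcyl2 near Smo and Trim8 near Sufu, which were 4, 3, 3 and 2 of their peaks in Ctrl1. Peaks away from any promoter were 6 of 7 in the Gli2 window and 9 of 10 in the Gli3 window in Ctrl1, 1 of 2 and 5 of 6 in cKO1, and 8 of 10 and 8 of 9 in cKO2. In Ctrl1 they were also 7 of 12 for Sufu, 5 of 9 for Ptch1, 3 of 5 for Hhip and 3 of 3 for Shh. Sufu, Ptch1, Smo and Gli1 were above the median density in each of these 3 libraries, as was Gli3, by less.

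**Figure D4:**
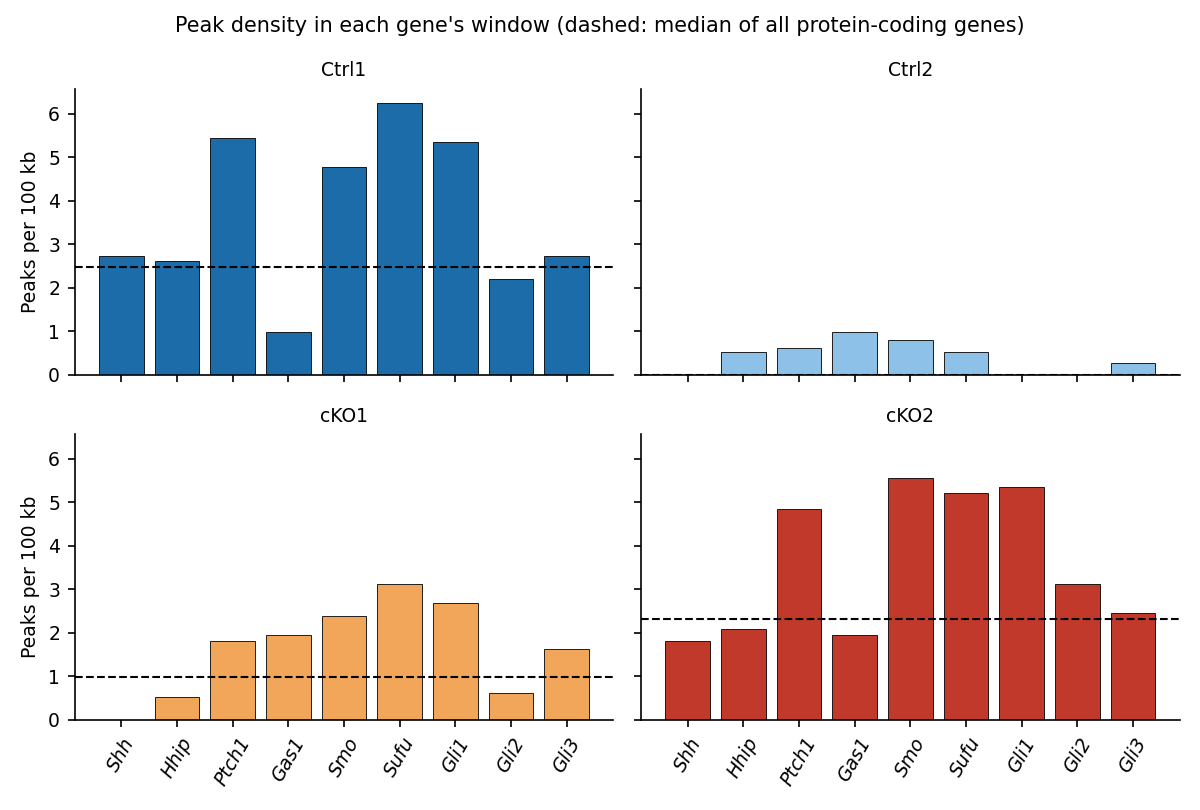
Peaks per 100 kb (y axis) in the window of each gene (x axis, gene body and 50 kb on either side) in each library (panels), with the median of all protein-coding genes as a dashed line. Sufu, Ptch1, Smo and Gli1 lie above the line in Ctrl1, cKO1 and cKO2, and in Ctrl2 no bar exceeds 0.971.

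Further genes of the pathway were taken from a list of 32. A promoter peak was listed for 26 of them in Ctrl1, 4 in Ctrl2, 17 in cKO1 and 25 in cKO2, beside 58.0%, 8.27%, 40.3% and 55.9% of all protein-coding genes. The median percentile was 58.6, 0, 61.9 and 57.2, beside 49.9, 0, 0 and 50.0 over all protein-coding genes. Genes without a peak count as 0 in these medians, and a median among genes with a peak was not computed for this list. Of the 32, 4 ranked higher in both cKO libraries than in both Ctrl libraries, none ranked lower, 23 overlapped and 5 had no promoter peak. The co-receptor genes Boc (58.8, 0, 67.7 and 60.8 in Ctrl1, Ctrl2, cKO1 and cKO2) and Cdon (59.7, 0, 66.1 and 60.3) were among these 4. The others were Arl13b (94.2, 92.8, 96.0 and 95.5), for a small GTPase of the primary cilium, and Prkacb (75.7, 0, 77.1 and 83.1), for a catalytic subunit of protein kinase A. These 4 are 14.8% of the 27 genes of the list with a promoter peak in 1 or more libraries, beside 20.5% of the 13196 such genes in the annotation. For Boc and Cdon any peak in cKO1 gives at least 59.75, above their 58.79 and 59.69 in Ctrl1, and Ctrl2 listed none. For them only the order of cKO2 and Ctrl1 was free to vary. Without Ctrl2, 6 of the 27 ranked higher in both cKO libraries than in Ctrl1 and 11 ranked lower (22.2% and 40.7%, beside 23.8% and 36.6% of 13176 genes). The 6 were these 4 with Gsk3b and Btrc. On the ligand side Dhh, Ihh, Disp1 and Scube2 had no promoter peak in any library. Hhat, the acyltransferase that lipid-modifies the ligand, had one in Ctrl1 alone. The 8 genes for kinases and GLI degradation had the highest medians outside Ctrl2, at 93.3, 0, 93.4 and 92.1 in the 4 libraries, and were led by the kinase gene Gsk3b, whose percentile was 99.9 or more in each library after rounding. Among the targets Mycn had a promoter peak in all 4 libraries (86.0, 96.1, 92.8 and 81.7), and Nkx2-2, a ventral gene of the neural tube, had none. Foxa2, also among the targets, had one in cKO1 alone, with a percentile of 61.0.

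**Figure D5:**
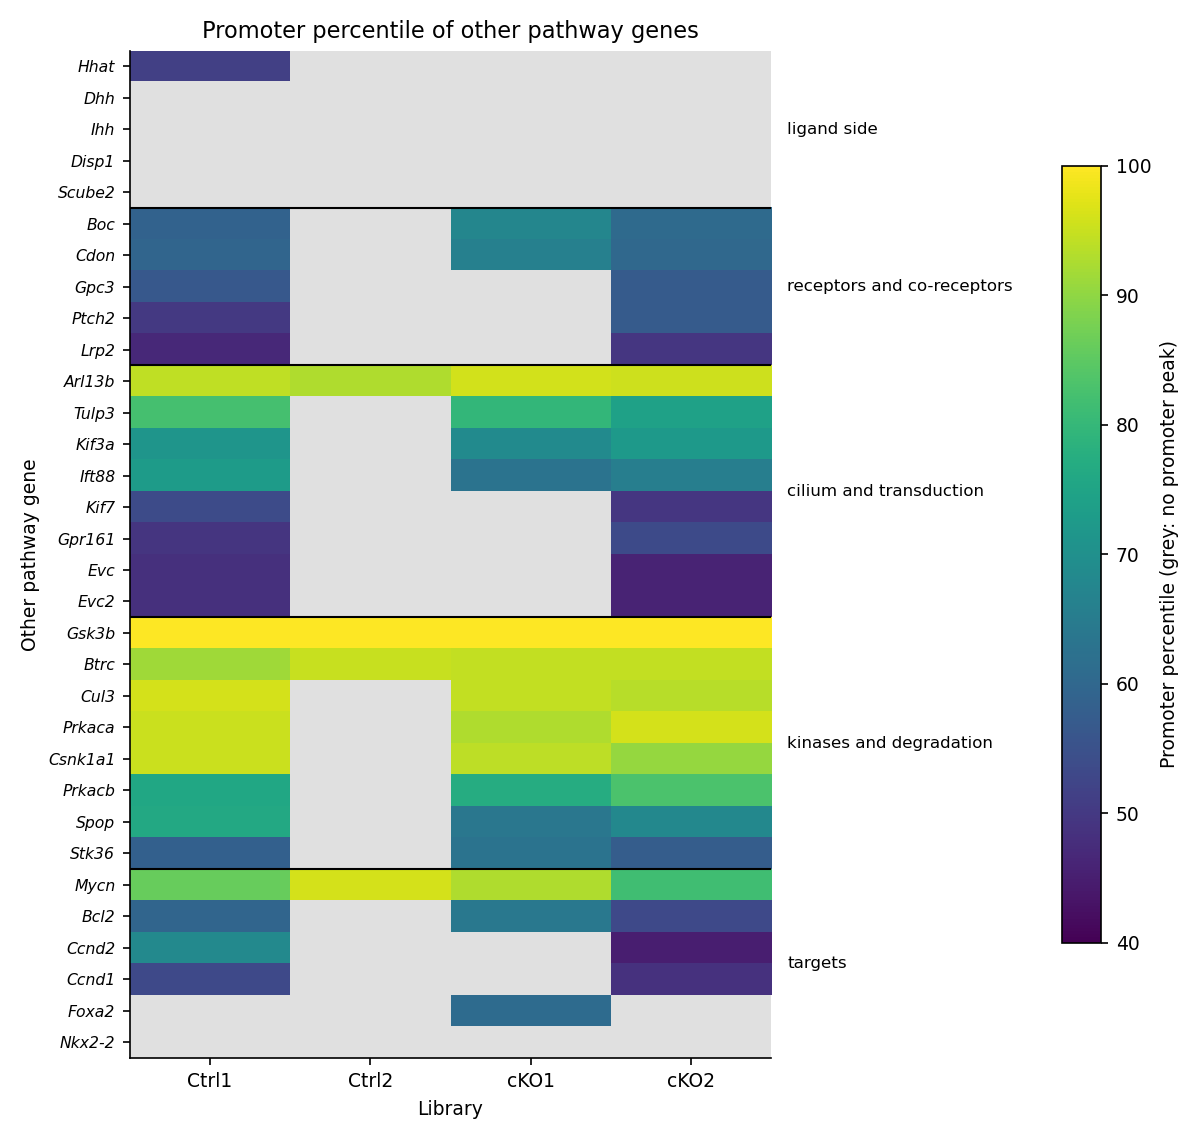
Promoter percentile (color, grey for no promoter peak) of 32 other genes of the pathway (rows, by class) in the 4 libraries (columns). The genes for kinases and degradation hold the brightest block, with medians of 92.1 to 93.4 outside Ctrl2, and the ligand side is grey except for Hhat in Ctrl1.

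For the 5 genes whose promoter peak was listed in 3 or 4 libraries (Ptch1, Gas1, Sufu, Gli2 and Gli3), the protein-coding genes with the most similar percentiles were found by Euclidean distance over the 4 libraries. Actr1a was at a distance of 0 from Sufu, because both have the same promoter peaks. The nearest gene was Tomm34 for Ptch1 (0.795 percentile points), Chn2 for Gas1 (0.692), Rasa2 for Gli2 (1.04) and Frmd4a for Gli3 (0.296).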

How the data were processed

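ATAC-seq was measured in 4 libraries from postnatal day 0 hippocampus, grouped by their titles. After trimming with Cutadapt and alignment to mm10 with Bowtie2, the authors discarded blacklisted regions, mitochondrial reads and duplicates, which can lower the depth in repeats, and shifted fragments for the Tn5 offset. They called peaks per library with MACS2 2.2.7.1, without a control or pooling. The deposited score is a display value and was not used. The deposited fold enrichment is a ratio of fragments at the summit to local background. The deposited −log10 p-values and −log10 q-values test this depth by a Poisson distribution. The deposited summit offset gave positions. Lists share no scale, so peaks were ranked within a list. Fragments at a summit were recovered from fold and p-value, as a whole number that fitted −log10 p within 0.01 for every promoter peak printed and for at least 99.4% of each list. The lowest background was taken as the mean genome depth (1.62 to 3.46 fragments). Annotation was the GENCODE M21 basic set, and repeat-masked peaks had 50% or more soft-masked bases.

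Groups were compared by an exact two-sided permutation test over 6 assignments, with Benjamini-Hochberg adjustment over 13196 genes. Median summits held 18 to 20 fragments, which sets the precision. The text names all 9 genes, the best region away from promoters in each window, the most similar genes by percentile, and extremes of a pathway list. The genes and lists were chosen with earlier results of these data known. Alternatives were the promoter width, overlap rule, list size, q-value, ranking column, mid-ranks, flanks, transcript set, repeat-masked peaks and left-out libraries. Scripts (Python 3.11.15, pandas 2.3.3, scipy 1.17.1, pysam 0.24.0) were tested on simulated data. Reads were not analysed here, and 1 marker gene is not reported here.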

Additional observations from a re-analysis of the deposited data

How the results depend on the processing

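With n = 2 per group no exact permutation p can fall below 0.333, and none did in any alternative. The differences (cKO minus Ctrl) in the number of the 9 genes with a promoter peak (2.5 genes) and in mean percentile (17.8 points) were smaller than the spread between replicates (SD 3.35 genes and 19.9 points), so a shift to 0 also lies within that spread. They fell to 0 genes and −0.337 points with equal-size lists and to 1 gene and 7.08 points at a −log10 q of at least 5. Mid-ranks gave 2.92 points. Of the other alternatives that kept all libraries, the genes came to 2 or 2.5 and the points to between 13.8 and 18.9. Leaving out 1 library gave −0.5 to 5.5 genes, −0.380 to 35.9 points and −0.00133 to 0.0406 percentage points for the share of peaks in the windows, the lowest each time without Ctrl2. Without repeat-masked peaks that share differed by −0.00335 percentage points, against 0.0196. The count of genes ranked higher in both cKO libraries, 2, was 0 with equal-size lists and 1 at a −log10 q of at least 5. It was 4 when ranked by fold enrichment (Ptch1 and Gli3 added) and 3 with promoters of 1 kb (Gli3 added). With 1 library left out it was 2 to 6 (6 without cKO1, 4 without Ctrl1). Over all genes with a promoter peak the shares ranked higher under these settings were 17.6%, 19.5%, 21%, 20.8%, 44.9% and 59.6%, against 20.5%. The count ranked lower, 0, was 1 (Sufu) with promoters of 1 kb, beside 2.85% of all genes, and 0 to 1 with 1 library left out, beside 5.15% to 36.6%. Without Ctrl2 the pathway list of 32 had 11 genes ranked lower instead of 0, a check added after the data were seen. With all GENCODE transcripts Gli1 took the place of Gli2 among the 2 genes ranked higher. The cause of these shifts was not tested.

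The correlation of deviations was 0.0530 for libraries of the same replicate number and −0.0530 for the crossed pairing. With n = 2 per group these values are opposite by construction, so they cannot decide whether the samples were paired. In the replicate block 3 genes (Gas1, Gli2 and Gli3) ranked higher and 1 (Sufu) lower within both numbers, beside 32.2% and 4.3% of all genes, where p cannot fall below 0.5. For these 3 genes any peak in cKO1 ranks above Ctrl1, and Ctrl2 listed none.

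For single genes, 86 of 104 alternatives kept the direction, 9 gave 0 and 9 reversed it. The 104 include the replicate block of each gene, which keeps the difference by construction and so says nothing on stability. With mid-ranks the difference was −6.04 for Hhip and −5.96 for Smo, and at a −log10 q of at least 5 it was −0.0820 for Gli3. With 1 library left out it ran from −22.6 to 26.5 for Hhip, −27.2 to 31.2 for Smo, −1.45 to 64.5 for Ptch1 and −6.11 to 0.0501 for Sufu. Depth limits the shallow promoters, those of Hhip, Smo, Gli1, Gli2 and Gli3 in particular, whose strongest peaks rested on 12 to 27 fragments.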
